A study of Mus musculus with 2 samples.

Results

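The C-type lectin family was followed gene by gene through immune cells of the mouse lung. Members were all features whose symbol begins with Clec and a digit, together with Cd209a to Cd209g and Mgl2, which gave 42 genes of the 55401 features in the count table. A UMI, or unique molecular identifier, marks 1 captured RNA molecule. Of the 42 members, 36 had at least 1 UMI, 25 had at least 50 UMIs in the cells kept, and 6 had none.

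Live CD45+ cells (stained for CD45.2, DAPI negative) had been sorted by flow cytometry from digested lungs of wild-type (WT) mice and Siah1a/2 KO mice, labelled as knockout for the Siah1a and Siah2 ubiquitin ligases. All mice were killed 7 weeks after a first dose of urethane, a carcinogen that induces lung tumours, so both genotypes carried that exposure. The labels list 1 sample per genotype, and they give no age, sex, strain or number of pooled animals. The barcodes carry the suffix 1 or 2, and no label ties a suffix to a genotype, so the sets are called library 1 and library 2 and the genotypes were not compared. The deleted part of each gene is not given, and the Siah1a (8.48 and 12.7 CPM) and Siah2 (17.9 and 27.5 CPM) levels of the libraries were not used to assign one.

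C-type lectins share a fold that was first recognised in calcium-dependent sugar-binding proteins. In lung, macrophages, monocytes, neutrophils and dendritic cells carry many of them as surface receptors for fungal, bacterial and mycobacterial sugars and for molecules released by dying cells. Some signal through the kinase Syk, directly or through the adaptor Fcer1g, and the scaffold Card9, others carry inhibitory tyrosine motifs that recruit phosphatases such as Ptpn6, and others again take up cargo for antigen presentation. The Clec2 genes encode ligands for the Klrb1 receptors of natural killer (NK) cells.

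Library 1 held 8522 barcodes and 86227008 UMIs, and library 2 held 6479 barcodes and 59459790 UMIs. After filtering, 8066 and 6113 cells remained, with medians of 8661 and 7875 UMIs, and 11 barcode sequences occurred in both libraries. Cells were placed in 19 classes by summed UMIs of marker genes that exclude every member of the family, and 669 and 464 barcodes with markers of more than 1 lineage were set aside as mixed. A further 744 and 467 cells met no gate. Of the 19 classes, 14 held at least 50 cells in each library and were compared between libraries. Alveolar macrophages were all but missing from both libraries: 7 of their markers (Marco, Siglecf, Ear1, Fabp1, Car4, Cidec and Krt79) summed to 0.851 and 1.25 CPM of the kept cells, so no gate was set for them. The 5 classes not compared were Arg1 macrophages, cDC1, plasmacytoid DC, B cells and basophils, which are given by value. Markers left out of the gates were higher inside them than in all other gated cells, with 1 exception. Ccr7 was 63.6-fold or more higher in migratory DC, Tcf4 22.7-fold or more in plasmacytoid DC and Kit 49.8-fold or more in mast cells. The smallest were Itgb7 (1.89-fold or more in cDC2), Trbc2 (1.76-fold or more in other T cells) and Pglyrp1 (1.46-fold or more in non-classical monocytes). In those monocytes Spn was 2.45-fold or more higher. The exception was Spp1, which was lower in the Arg1 macrophages, at 0.400 and 0.237 times the other cells.

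Levels are UMIs of a gene per 1000000 UMIs of the class (CPM). A level is therefore a share of the RNA captured from a class and not an amount per cell. Because the kit reads the 3′ end of each RNA and no length correction was made, each gene was compared across classes and not with other genes. There was 1 library per barcode suffix, so no test across samples could be made. The 95% intervals (exact Poisson for levels, Clopper-Pearson for shares of cells, conditional binomial for ratios) cover counting error only.

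The genes lie in a few groups. By the GENCODE M21 annotation of GRCm38, 24 of the 39 members with a matching identifier are on chromosome 6 and 9 are on chromosome 8. The 9 Clec4 genes from Clec4a1 to Clec4e fill chr6:122921848-123289870 with no other protein-coding gene between them. The group from Clec12a to Clec7a spans chr6:129342691-129472779, the Cd209 genes with Clec4g span chr8:3707064-4137707, and Mgl2 and Clec10a are neighbours at chr11:70130329-70170834. The Clec2 genes at chr6:128652416-129331796 are interleaved with the Klrb1 receptor genes.

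Upstream sequences are shown for 5 members whose levels mark 2 cell groups described below, neutrophils (Clec7a, Clec4d, Clec4e) and cDC2 with plasmacytoid DC (Cd209a, Cd209d). They are taken from RefSeq (GRCm38.p6), read 5′ to 3′ on the gene's strand, and end at the annotated start of the gene. Capitals mark matches on either strand to GGAAGT, a core bound by PU.1-type Ets factors, to an Ets-IRF composite element (GGAA, any 2 bases, then GAAA), or to TTGCNNAA, the core of a CCAAT/enhancer-binding protein element.
Clec7a, chr6:129472780-129473029, minus strand: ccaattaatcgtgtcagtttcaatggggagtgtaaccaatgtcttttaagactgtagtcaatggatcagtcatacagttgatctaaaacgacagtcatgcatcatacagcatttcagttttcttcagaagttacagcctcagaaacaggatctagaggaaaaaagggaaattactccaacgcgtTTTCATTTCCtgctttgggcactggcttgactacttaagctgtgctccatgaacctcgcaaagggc
Clec4d, chr6:123261857-123262106, plus strand: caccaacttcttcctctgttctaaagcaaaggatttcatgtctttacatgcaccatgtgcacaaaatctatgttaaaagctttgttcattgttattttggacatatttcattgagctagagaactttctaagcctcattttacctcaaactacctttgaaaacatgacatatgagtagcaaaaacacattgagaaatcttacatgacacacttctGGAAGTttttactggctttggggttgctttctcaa
Clec4e, chr6:123289872-123290121, minus strand: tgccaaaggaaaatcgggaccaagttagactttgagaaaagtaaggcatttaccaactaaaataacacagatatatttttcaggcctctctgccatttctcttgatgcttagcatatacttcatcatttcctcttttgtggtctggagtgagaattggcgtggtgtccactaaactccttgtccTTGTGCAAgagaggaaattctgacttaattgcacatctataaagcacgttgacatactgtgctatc
Cd209a, chr8:3748985-3749234, minus strand: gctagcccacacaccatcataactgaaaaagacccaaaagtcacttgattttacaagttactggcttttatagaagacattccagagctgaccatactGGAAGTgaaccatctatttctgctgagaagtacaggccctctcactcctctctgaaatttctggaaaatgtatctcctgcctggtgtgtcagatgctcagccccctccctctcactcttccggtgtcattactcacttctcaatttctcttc
Cd209d, chr8:3878556-3878749, minus strand: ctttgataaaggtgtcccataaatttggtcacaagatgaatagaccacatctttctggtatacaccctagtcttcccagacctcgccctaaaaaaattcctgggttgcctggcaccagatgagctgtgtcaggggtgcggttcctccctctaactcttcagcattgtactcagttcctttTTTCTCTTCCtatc

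Of the 25 members with at least 50 UMIs, 21 had an entry in the promoter table, and their 250 bases upstream of the RefSeq start were searched. GGAAGT was found in 5 of the 21 (Clec4a2, Clec4d, Cd209a, Cd209d and Mgl2) and in 20.0% of all 27025 promoters, the match of Cd209d lying in the last 56 bases of its window, which are inside the GENCODE gene and are not shown. The Ets-IRF element was found in 5 of the 21 (Clec4a1, Clec2i, Clec7a, Cd209e and Cd209d) and in 2.38% of all promoters. TTGCNNAA was found in 4 (Clec4e, Clec12a, Clec11a and Clec16a) and in 9.55% of all promoters, and TGANTCA, the AP-1 element, in 2 (Clec2g and Clec12a) and in 6.87%. These are letter matches, and no binding was measured.

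Most members belonged to myeloid cells. UMIs were summed over the 10 macrophage, monocyte, cDC1, cDC2, migratory DC and neutrophil classes, without plasmacytoid DC, and over the 6 T, NK and B classes of each library, and a gene was called when its 2 levels differed more than 2-fold in the same direction in both libraries. Of 22 members with enough UMIs, 16 were more than 2-fold higher in myeloid cells (72.7%, against 15.8% of all 14312 genes compared), 2 were lower (Clec11a and Clec3b, against 20.2% of all genes) and 4 lay between (Clec2l, Clec2i, Clec2d and Clec16a). Clec1a had no UMI in the lymphoid classes of either library, and the other 15 ranged from 15.4-fold higher (Cd209d in library 2) to 114-fold higher (Mgl2 in library 2). With plasmacytoid DC added to the myeloid sum, a choice made after seeing the data, 17 of 23 members were higher, Cd209e being the added member, and Cd209d was 32.1-fold and 46.4-fold higher in library 1 and library 2. The class with the highest level was the same in both libraries for 17 of the 25 members, and for 11 of the 15 that reached 50 CPM in a compared class.

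**Figure D1:**
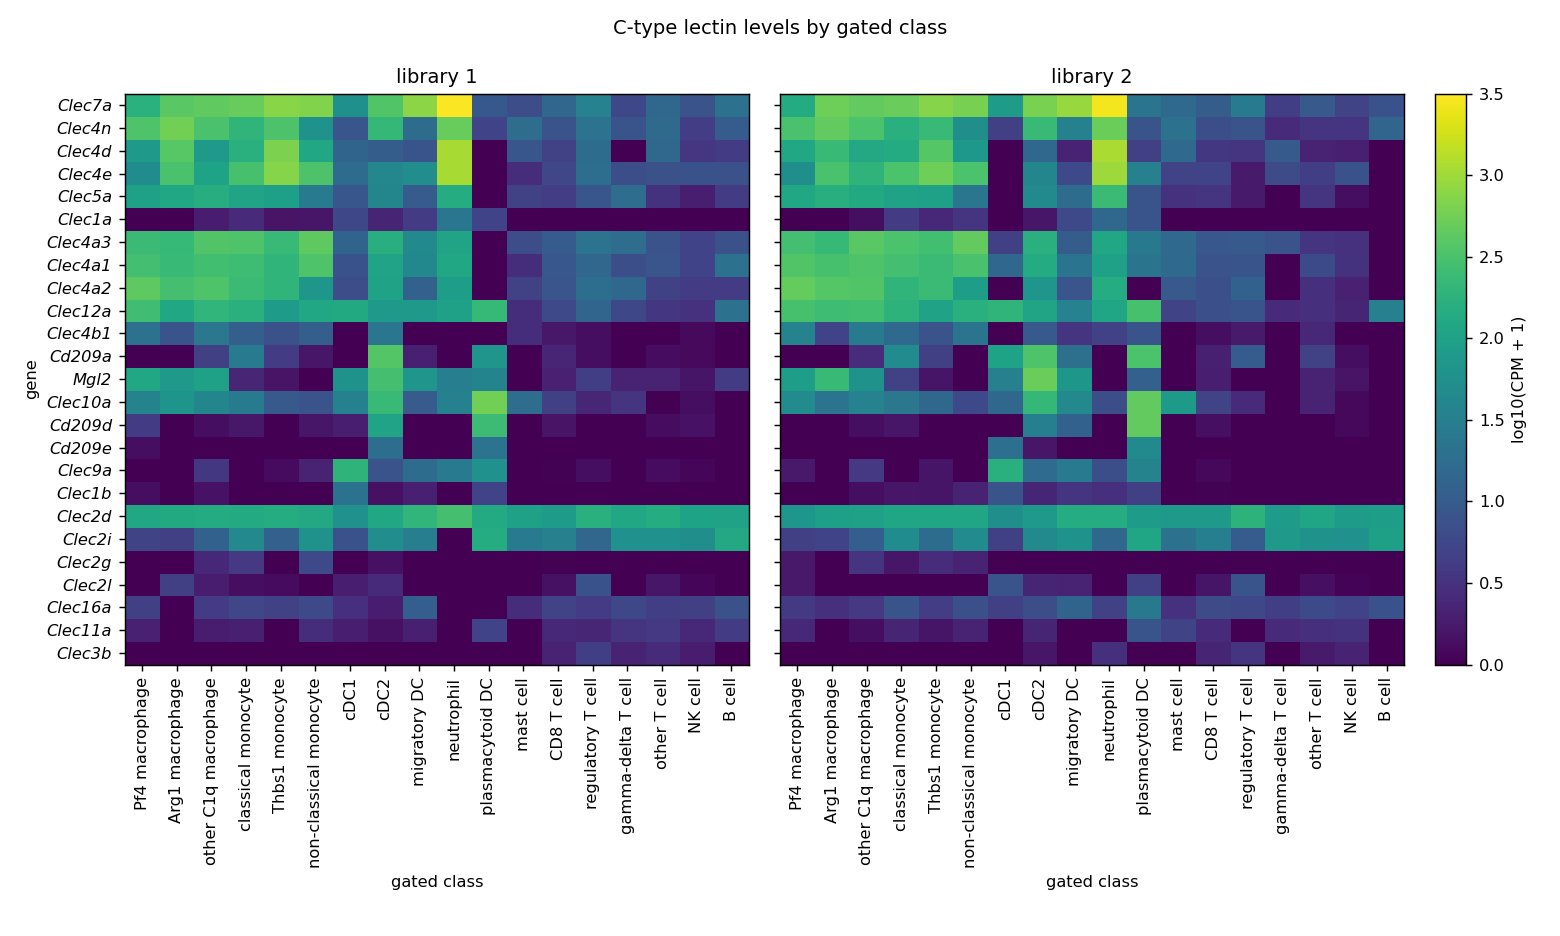
Levels of the 25 members with at least 50 UMIs, as log10 of CPM plus 1, in 18 gated classes (columns) of library 1 (left) and library 2 (right), with basophils, which had no cell in library 1, left out. Clec7a, Clec4d and Clec4e are brightest in neutrophils, Cd209a and Mgl2 in cDC2, Clec10a and Cd209d in plasmacytoid DC, and Clec2d stays between 53.8 and 289 CPM in every column.

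Clec7a encodes Dectin-1, the Syk-coupled receptor for fungal β-glucans. Its level in neutrophils was 3059.7 CPM in library 1 and 2770.3 CPM in library 2, where 74 of 76 and 128 of 134 cells held a UMI. Migratory DC followed at 783 and 902 CPM, Thbs1 monocytes at 760.3 and 729 CPM, and non-classical monocytes at 693 and 607 CPM. As a share of class UMIs, the neutrophil level was the highest in both libraries, with intervals apart from those of every other class. Neutrophils also had the lowest median UMIs of all classes, and counts per cell were not compared. Pf4 macrophages, which are gated on Folr2, Pf4, Cbr2, Cd163 and Lyve1, had 169 and 140.4 CPM, below the other C1q macrophages at 436 and 452 CPM. In CD8 T cells, which serve here as the measure of background, the level was 13.4 and 9.81 CPM, and 7.00% and 3.98% of cells held a UMI at median depths of 8098 and 7173 UMIs, against 2569.5 and 2700 UMIs in neutrophils.

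Clec4e encodes Mincle, the receptor for mycobacterial cord factor, and Clec4d encodes its partner MCL. The genes are neighbours on opposite strands, 6.52 kb apart. In neutrophils Clec4d stood at 1117 and 1125 CPM. Clec4e stood there at 1114 and 958 CPM. Both were next highest in Thbs1 monocytes (gated on Thbs1, Inhba and Il1a), where Clec4d had 647 and 377 CPM and Clec4e 740.4 and 541 CPM. A UMI of both genes was found in 61 of 76 and 104 of 134 neutrophils, and in 336 of 457 and 253 of 386 Thbs1 monocytes. The genes parted in non-classical monocytes: a Clec4e UMI was present in 120 of 205 and 68 of 96 cells, and a Clec4d UMI in 64 and 25 of the same cells. Relative to the neutrophil level, Clec4e in non-classical monocytes was at 335 and 319 CPM and Clec4d at 125 and 72.3 CPM. Background in CD8 T cells was 3.83 and 2.73 CPM for Clec4d and 4.53 and 4.12 CPM for Clec4e.

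Clec4n (Dectin-2, a receptor for fungal mannans that signals through Fcer1g) was spread over neutrophils and macrophages. It had 484 and 515 CPM in neutrophils and 344 and 309 CPM in Pf4 macrophages. Non-classical monocytes were low, at 62.6 and 54.8 CPM. The small Arg1 macrophage class (24 and 38 cells) had 571 and 453 CPM. Clec5a, which signals through the adaptors Tyrobp and Hcst, was highest in other C1q macrophages of library 1 (151 CPM, against 146 CPM in neutrophils) and in neutrophils of library 2 (245 CPM). The 2 library 1 levels have overlapping intervals, so the order of those classes is not resolved. Clec1a, at 68 UMIs in all, was highest in neutrophils at 22.5 and 13.6 CPM, from 6 and 7 UMIs.

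Clec4a2, Clec4a3 and Clec4a1 belong to the DCIR branch of the Clec4 group. DCIR itself, the product of Clec4a2, carries an inhibitory motif. Clec4a2 was highest in Pf4 macrophages, at 429 and 469.6 CPM, and lower in other C1q macrophages, at 337 and 353 CPM. In non-classical monocytes it stood at 70.1 and 88.5 CPM. Between these monocytes and Pf4 macrophages Clec4a3 ran the other way. It was highest in non-classical monocytes, at 425 and 455 CPM, against 241 and 286 CPM in Pf4 macrophages. The other C1q macrophages were closer. Without the 3 cells with the most UMIs in each library they had 345 and 381 CPM, against 410 and 425 CPM in non-classical monocytes. Clec4a1 was flatter: non-classical monocytes had 343 and 314 CPM and Pf4 macrophages 279 and 355 CPM, with the order of the 2 classes changing between libraries. Clec4b1, which encodes DCAR, an activating relative, reached only 35.8 CPM, in Pf4 macrophages of library 2. Of the 60-base windows in the last 500 bases of its transcripts, 7.35% also occur in Clec4a2, and 6.91% of those of Clec4a2 occur in Clec4a4 or Clec4b1, so a small part of these reads cannot be placed.

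**Figure D2:**
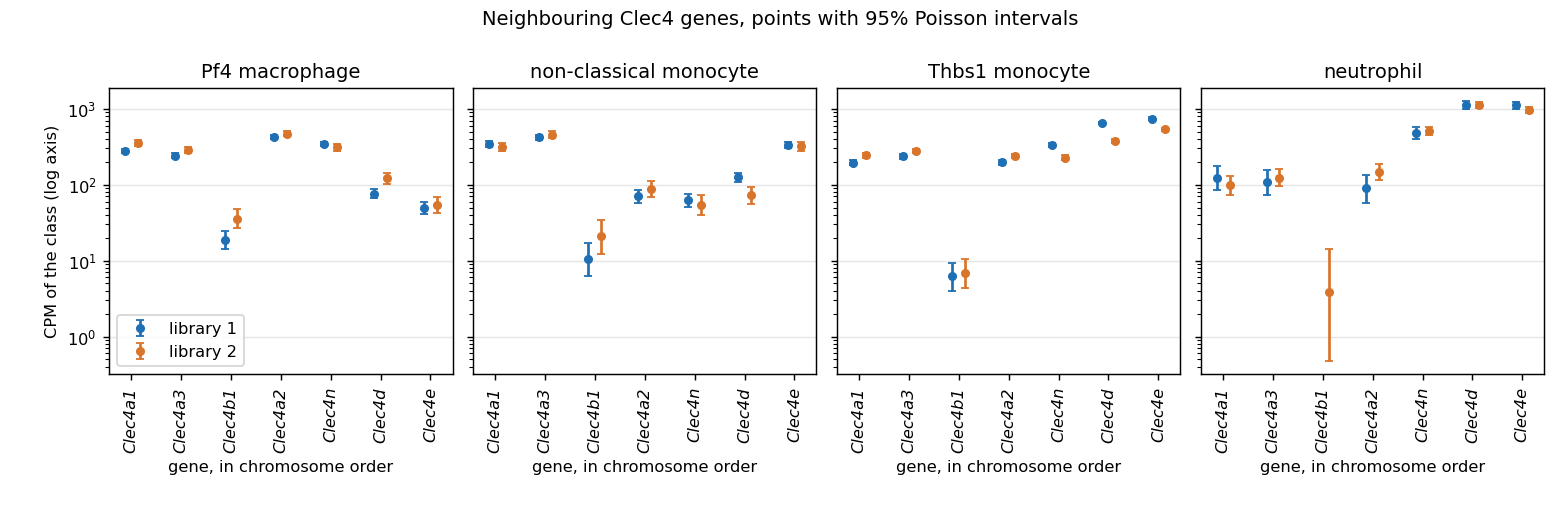
CPM on a log axis of 7 Clec4 genes in their order along the chromosome, in Pf4 macrophages, non-classical monocytes, Thbs1 monocytes and neutrophils, with a point per library and 95% Poisson intervals; Clec4b1 had no UMI in library 1 neutrophils and has no point there. Clec4a2 is low in non-classical monocytes and high in Pf4 macrophages, whereas Clec4d and Clec4e are low in Pf4 macrophages and highest in neutrophils.

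Across 18 classes with the libraries pooled, the profiles most alike, by Pearson's r of log2(CPM + 1), were those of Clec4a1 and Clec4a3 (r = 0.97), followed by Clec5a and Clec4n (r = 0.95) and by Clec1b and Clec9a, which overlap (r = 0.95). Among other neighbours, Clec4d and Clec4e gave r = 0.92, Cd209e and Cd209d 0.91, and Clec4n and Clec4d 0.89. The classes share 2 libraries and their background RNA, so these values are descriptions. Closeness on the chromosome did not always go with a like profile: Clec9a and Clec7a, 36.8 kb apart, gave r = 0.25. Clec2i and Clec2g, 36.2 kb apart, gave r = 0.03, but Clec2g had only 55 UMIs over all kept cells, so its profile is poorly measured.

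Clec12a, an inhibitory receptor that senses uric acid crystals from dead cells, was spread over most myeloid classes. Pf4 macrophages had 267 and 299.9 CPM, classical monocytes 165 and 179 CPM and neutrophils 101 and 113 CPM. In plasmacytoid DC it stood at 217 and 301 CPM, with a UMI in 16 of 24 and 22 of 26 cells, while most other myeloid members were at or near 0 there. CD8 T cells had 5.00 and 6.15 CPM.

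The uptake receptors set the dendritic cell classes apart. Cd209a encodes the mouse relative of human DC-SIGN. Its cDC2 level was 364 CPM in library 1 and 346 CPM in library 2, and 48.0% and 48.6% of 173 and 107 cells held a UMI. With each cell thinned to 3000 UMIs the shares were 33.9% and 34.3%. The classical monocytes had 27.7 and 47.6 CPM, with 51.2% and 68.9% of those UMIs in 3 cells. No UMI was found in neutrophils, Pf4 macrophages or mast cells, and CD8 T cells held 1.39 and 1.04 CPM in 0.700% and 0.403% of cells. Of all Cd209a UMIs, 25.3% were in mixed barcodes and 13.8% in ungated cells.

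Mgl2 and Clec10a encode the galactose-type lectins MGL2 and MGL1. Mgl2 was highest in cDC2 at 297 and 498 CPM, followed by Pf4 macrophages at 125 and 90.7 CPM. Clec10a stood in cDC2 at 238 and 215 CPM and in plasmacytoid DC at 562 and 455 CPM. A Clec10a UMI was present in 22 of 24 and 24 of 26 plasmacytoid DC (78.3% and 69.2% after thinning), whereas Mgl2 was found in 8 and 3 of them. In the last 500 bases of its transcripts, 13.1% of 60-base windows of Clec10a also occur in Mgl2, so reads there could be split between the pair. CD8 T cells held a Clec10a UMI in 1.84% and 1.26% of cells and an Mgl2 UMI in 1.01% and 0.403%.

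Within cDC2, Mgl2 was about as frequent in cells with Cd209a as in cells without it. An Mgl2 UMI was present in 31 of 83 cells with Cd209a (37.3%) and in 34.4% of cells without it in library 1. In library 2 the shares were 25 of 52 (48.1%) and 47.3%. Clec10a was found more often beside Cd209a, in 75.9% against 38.9% of cells in library 1 and in 67.3% against 45.5% in library 2. Cells with more UMIs hold more genes, which raises such shares, and depth was not matched here.

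Cd209d, another mouse relative of DC-SIGN, was highest in plasmacytoid DC and next in cDC2. It had 109.6 and 31.6 CPM in cDC2 and 250.2 and 451 CPM in plasmacytoid DC. Of cDC2 with a Cd209d UMI, 23 of 26 and 15 of 15 also held Cd209a. In plasmacytoid DC that share was lower, 7 of 12 and 10 of 16 cells. The share of cells with Cd209a that also held Cd209d ran the other way. It was 87.5% and 83.3% in plasmacytoid DC, against 27.7% and 28.8% in cDC2. Plasmacytoid DC also held Cd209a, at 65.6 and 319 CPM, in 8 of 24 and 12 of 26 cells. Plasmacytoid DC markers were compared within cDC2. A cell with at least 5 UMIs over Siglech, Ccr9, Klk1 and Cox6a2 was not placed in cDC2. Low values of these genes in cDC2 therefore follow from the gate. With Pacsin1 and Tcf4, which the gate did not use, the 6 markers summed to 355 and 82.4 CPM in Cd209d-positive cDC2. The sums were 84.9 and 115 CPM in Cd209d-negative cDC2 and 7217 and 7928 CPM in plasmacytoid DC. Klk1 was at 0 in all cDC2. Tcf4, a transcription factor of plasmacytoid DC, was at 331 CPM in Cd209d-positive and 79.8 CPM in Cd209d-negative cDC2 of library 1, and at 66.0 and 105 CPM in library 2, so that difference was not shared by the libraries.

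Clec9a encodes DNGR-1, the Syk-coupled receptor with which cDC1 sense actin exposed on dead cells. In the 46 and 13 cDC1 it stood at 186 and 165 CPM, with a UMI in 41 and 10 cells. Plasmacytoid DC came next at 57.4 and 35.8 CPM, and CD8 T cells held 1 and 3 UMIs in all. Clec7a in cDC1 was at 55.7 and 82.4 CPM, far under its cDC2 level of 352 and 629 CPM. Clec1b, known as CLEC-2 of platelets, overlaps Clec9a on the same strand. Its 61 UMIs were highest in cDC1 too, at 20.2 and 7.17 CPM, and reads in the overlap cannot be told apart.

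**Figure D3:**
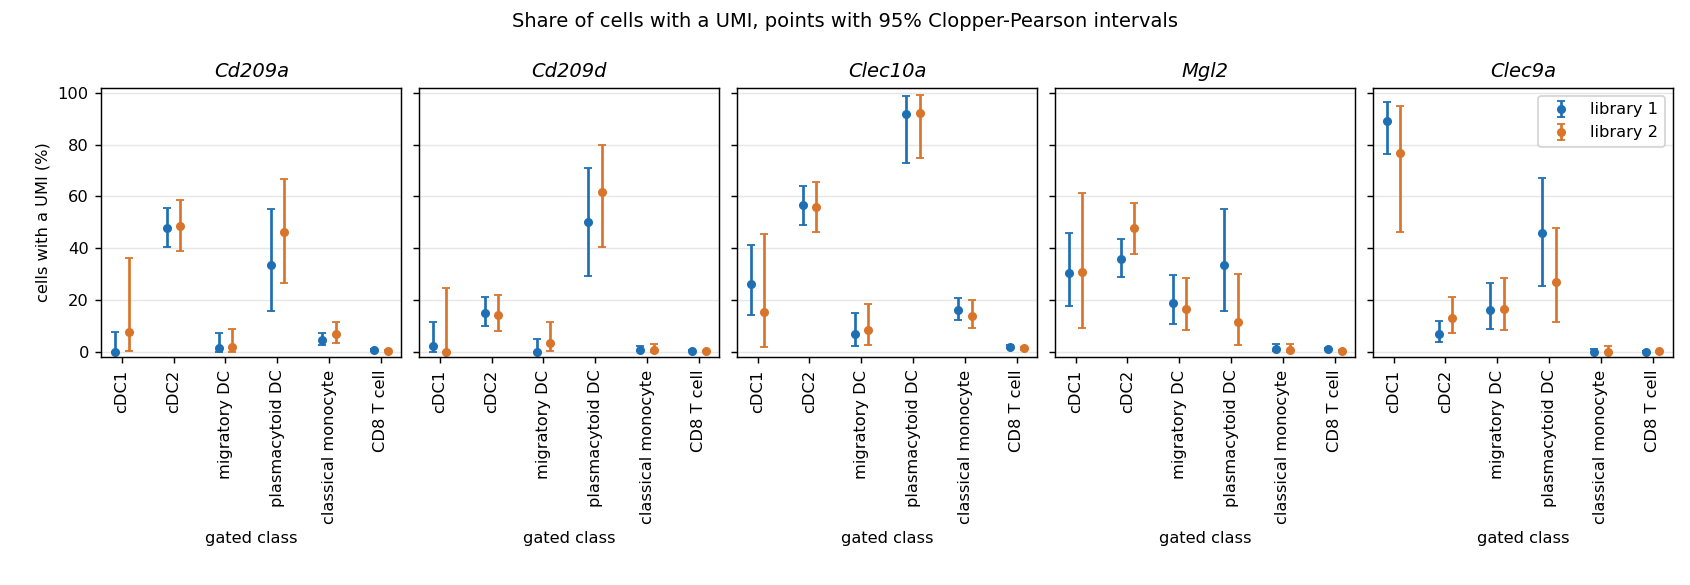
Share of cells with at least 1 UMI of Cd209a, Cd209d, Clec10a, Mgl2 and Clec9a in 4 dendritic cell classes, classical monocytes and CD8 T cells, with a point per library and 95% Clopper-Pearson intervals. Clec9a is found in most cDC1, Clec10a in more than 90% of plasmacytoid DC, and Cd209a in 48.0% and 48.6% of cDC2, while CD8 T cells lie near 0.

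Clec2d and Clec2i, the ligands, were less than 2-fold apart between the myeloid and lymphoid sums in both libraries, as were the sparse Clec16a and Clec2l. Clec2d encodes Clr-b, which is bound by the inhibitory NK receptor encoded by Klrb1b, and it had between 53.8 CPM (cDC1, library 2) and 289 CPM (neutrophils, library 1) over all classes with cells. Among lymphocytes, regulatory T cells were highest at 167 and 184 CPM and CD8 T cells lowest at 82.8 and 74.7 CPM. Clec2i encodes Clr-g, a ligand of the receptor encoded by Klrb1f. It was at 55.1 and 58.5 CPM in NK cells, 57.7 and 76.5 CPM in gamma-delta T cells, and 127 and 97.7 CPM in the 93 and 47 B cells. Plasmacytoid DC, at 148 and 118 CPM, were in the same range as B cells. Regulatory T cells were low for Clec2i, at 13.3 and 9.54 CPM, and so were Pf4 macrophages, at 4.28 and 3.66 CPM. The receptors were measured in the same cells. Klrb1b had 149 and 187 CPM in NK cells, and also 104 and 149 CPM in cDC2. Klrb1f had 203 and 195 CPM in NK cells and 89.0 and 88.6 CPM in gamma-delta T cells.

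The other members with at least 50 UMIs were sparse. Clec16a, an intracellular protein of autophagy that is no lectin receptor, stayed between 0.860 and 12.4 CPM in the compared classes where it had a UMI. Clec11a, a secreted growth factor, reached 4.23 CPM among the compared classes, in mast cells of library 2. Clec3b (tetranectin, a secreted plasminogen-binding protein) and Clec2l were highest in regulatory T cells, at 3.50 and 2.39 CPM and at 6.65 and 7.16 CPM. Clec2g had 55 UMIs. Cd209e had 71, of which 41 and 1 lay in cDC2 of library 1 and library 2. Over all classes with the libraries pooled, the Cd209e level was highest in plasmacytoid DC.

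Another 11 members had between 1 and 36 UMIs in kept cells: Cd209c 36, Clec4g 33, Clec4a4 23, Clec2f 13, Cd209b 8, Clec4b2 and Clec12b 3 each, Clec2h, Clec2e and Cd209f 2 each, and Cd209g 1. No UMI was found for Clec4f, the Kupffer cell lectin, for Clec14a, an endothelial protein, or for Clec2j, Clec2m, Clec18a and Clec3a. A count of 0 allows up to 3 UMIs among the 145686798 of both libraries.

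Between the libraries, 137 pairs of a member and a class had at least 50 UMIs. A pair was called when its ratio of library 2 over library 1 was past 2-fold and its interval excluded 0 on the log2 scale. This held for 12 pairs (8.76%), 1 higher and 11 lower in library 2, against 1.95% of all 93436 gene and class pairs (0.837% higher and 1.11% lower). The 12 lay in migratory DC, regulatory T cells, cDC2, other T cells and NK cells, and none in the macrophage, monocyte or neutrophil classes where most of the family is highest.

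**Figure D4:**
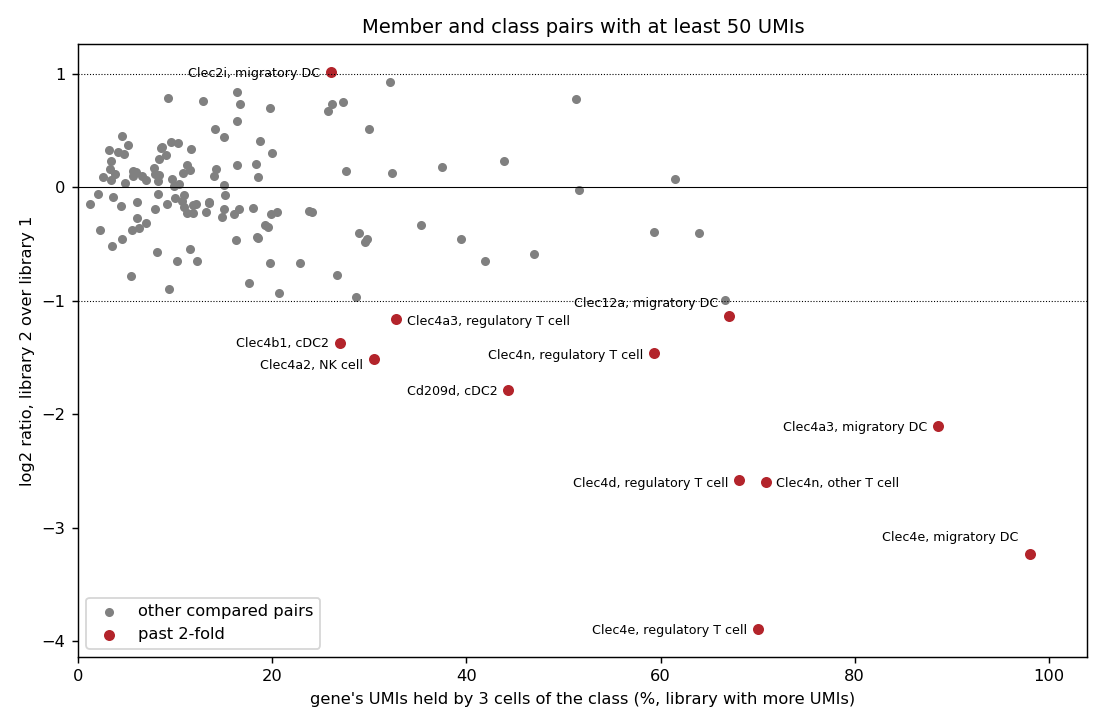
Log2 ratio of library 2 over library 1 of the 137 compared pairs, against the percentage of the gene's UMIs held by the 3 cells with the most, in the library with more UMIs of the gene. Dotted lines mark 2-fold, and the 12 pairs past it are named; those lowest in library 2 lie at the right, where 3 cells hold most UMIs.

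Regulatory T cells held 4 of the 12 pairs, all lower in library 2, where 2.06% of all genes compared in that class were past 2-fold lower. Clec4d had 47 and 3 UMIs in the respective libraries (log2 ratio -2.58, interval -5.11 to -1.15). Clec4e had 50 and 1, Clec4n 59 and 9, and Clec4a3 58 and 11. In library 1, 3 cells held 70% of the Clec4e UMIs and 32.8% of the Clec4a3 UMIs. These genes were more than 2-fold higher in the myeloid sum, and 4 lists of marker genes were summed in this class. The 6 macrophage markers (C1qa, C1qb, C1qc, Ms4a7, Apoe and Adgre1) summed to 535 CPM in library 1 and 199.6 CPM in library 2, with 5 of the 6 higher in library 1 and none at 0. The 4 inflammatory monocyte markers (Inhba, Thbs1, Il1a and Hmox1) summed to 115 and 30.2 CPM, all 4 higher in library 1 and 2 of them at 0 in library 2. The 7 neutrophil markers summed to 16.5 and 44.5 CPM, with 2 at 0 in library 1. The 6 classical monocyte markers summed to 1361 and 1316 CPM, with none at 0. That list also summed to 3432 and 4026 CPM in CD8 T cells, against 3232 and 2769 CPM in cDC2. What that sum measures in lymphocytes was not tested. The adaptors were lower in library 2 as well, Fcer1g at 512 and 199.6 CPM and Tyrobp at 408 and 152 CPM. The part of myeloid cells in the result was not tested. The ratios also depended on the gates. With doubled gate thresholds the log2 ratio of Clec4n was 1.02, that of Clec4a3 -0.00785 and that of Clec4e -0.64. With mixed barcodes kept, Clec4a3 was at 0.00345, Clec4n at -0.00862, Clec4e at -0.34 and Clec4d at -1.05.

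Clec4n in other T cells (48 and 6 UMIs, log2 ratio -2.60) and Clec4a2 in NK cells (46 and 12 UMIs, -1.51) had the same form, where 0.777% and 0.913% of all genes of those classes were past 2-fold lower. The macrophage markers summed to 326 and 97.5 CPM in other T cells and to 204 and 66.4 CPM in NK cells, and the inflammatory monocyte markers to 36.9 and 10.5 CPM and to 12.2 and 6.65 CPM. The neutrophil markers stood at 17.7 and 17.5 CPM in other T cells and 9.74 and 10.2 CPM in NK cells. The classical monocyte markers stood at 2611 and 2692 CPM and at 2080.5 and 2228 CPM. The part of myeloid cells was not tested either. Migratory DC held 4 pairs, 3 lower and 1 higher, where 2.11% and 1.91% of all genes compared were past 2-fold lower and higher. Clec4e had 51 and 4 UMIs, Clec4a3 44 and 8 and Clec12a 76 and 28. There 3 cells of library 1 held 98.0%, 88.6% and 67.1% of them. The inflammatory monocyte markers summed there to 57.9 and 19.8 CPM with Il1a at 0 in both libraries, the macrophage markers to 414 and 588 CPM, the neutrophil markers to 7.11 and 13.6 CPM with Cxcr2 at 0 in both, and the classical monocyte markers to 463 and 409 CPM. Their part was not tested. Clec2i was the 1 pair higher in library 2, at 30.5 and 62.0 CPM in migratory DC (log2 ratio 1.02, interval 0.34 to 1.73), and 3 cells held 23.3% and 26% of its UMIs.

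The cDC2 class gave 2 of the 12 pairs, both lower in library 2, against 0.91% of all genes compared there. The Cd209d levels given above, 109.6 and 31.6 CPM, made a log2 ratio of -1.78 (interval -2.27 to -1.35). The share of cDC2 with a Cd209d UMI was 15.0% and 14.0% (8.77% and 3.81% after thinning to 3000 UMIs), and the positive cells, 26 and 15, held 255 and 49 UMIs. Of these, 3 cells held 44.3% and 65.3% in library 1 and library 2. With the 3 cells with the most UMIs left out of each library, a choice made after seeing the data, the log2 ratio of Cd209d went to -2.43 (62.5 and 11.3 CPM), outside the interval above, and it was the only 1 of the 12 pairs still called. Another 7 stayed past 2-fold lower with an interval excluding 0 but fell under 50 UMIs, with at most 7 UMIs left in library 2: the 4 of regulatory T cells, Clec4n in other T cells (-1.74), Clec4a2 in NK cells (-1.73) and Clec4b1 in cDC2 (-1.77). Leaving cells out also took many of the few library 2 UMIs of these pairs. It therefore cannot show whether their ratios rest on a few cells. The 4 pairs of migratory DC did not stay past 2-fold with an interval excluding 0. Clec2i fell just short of 2-fold there, at 0.98 (interval 0.20 to 1.81) with 60 UMIs. The intervals of Clec4e, Clec4a3 and Clec12a included 0. A pair that was not among the 12 then passed, Clec4a2 in neutrophils (log2 ratio 1.24). In plasmacytoid DC, too few to be compared, library 2 had the higher Cd209d value, as given above. Clec4b1 in cDC2 had 52 and 13 UMIs (log2 ratio -1.37). The macrophage markers summed in cDC2 to 452 and 349.5 CPM, all 6 higher in library 1, the inflammatory monocyte markers to 72.2 and 58.0 CPM, the neutrophil markers to 14.6 and 19.3 CPM and the classical monocyte markers to 3232 and 2769 CPM, and their part was not tested.

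Ratios under 2-fold in the large classes had narrow counting intervals. With an interval that excluded 0, 24 pairs were higher and 40 lower in library 2, against 12.5% and 8.63% of all gene and class pairs. In Thbs1 monocytes Clec4d was lower (-0.78, interval -0.88 to -0.68), and so were Clec4e (-0.45) and Clec4n (-0.57). In other C1q macrophages the first 2 went the opposite way, Clec4d from 75.5 to 128 CPM (0.76, interval 0.56 to 0.96) and Clec4e from 108 to 186 CPM (0.79). In cDC2, Clec7a (0.84, interval 0.70 to 0.97) and Mgl2 (0.75, interval 0.60 to 0.90) were higher in library 2. Mgl2 was lower in Pf4 macrophages (-0.46) and other C1q macrophages (-0.67). With the cells with the most UMIs left out of each library, as above, the Pf4 macrophage ratio was -0.13 (interval -0.50 to 0.23). The lower Mgl2 value in Pf4 macrophages therefore depended on those cells. The Mgl2 ratios of other C1q macrophages (-0.87) and cDC2 (0.70) kept their directions. With 1 library on each side, how far replicate libraries would differ is unknown, and whether the classes differ in these ratios was not tested.

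Clec2d differed in the same direction in nearly all classes. It was lower in library 2 with an interval excluding 0 in 11 of the 14 compared classes and had a ratio under 1 in 13. Of 1230 genes with at least 50 UMIs in all 14 classes, 5.12% were lower in at least as many classes, and 8.54% had ratios under 1 in at least as many. Neutrophils went from 289 to 148 CPM (-0.97, interval -1.44 to -0.49) and Pf4 macrophages from 126 to 67.3 CPM (-0.90, interval -1.25 to -0.57). NK cells had 108 and 82.7 CPM (-0.38) and CD8 T cells -0.15 on the log2 scale. Regulatory T cells were the exception, with 167 and 184 CPM (0.14, interval -0.09 to 0.37).

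**Figure D5:**
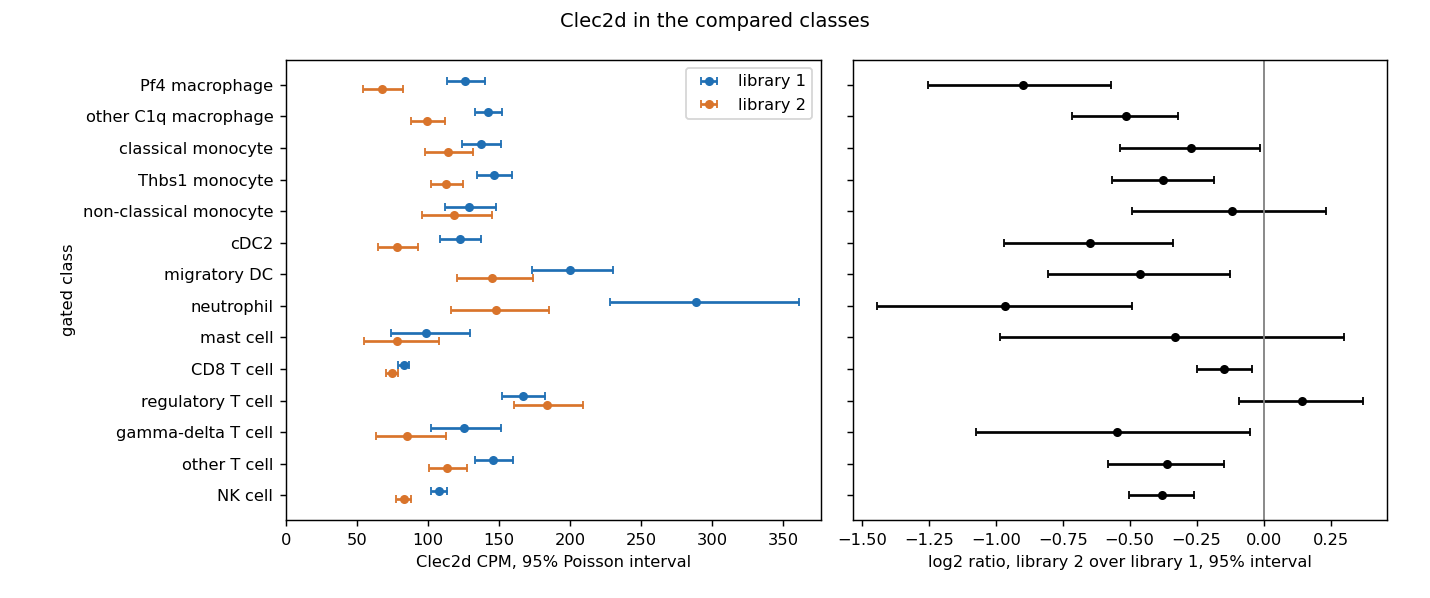
Clec2d CPM (left) in the 14 compared classes, with a point per library and 95% Poisson intervals, and the log2 ratio of library 2 over library 1 (right) with its 95% interval. The library 2 point lies to the left of the library 1 point in every class except regulatory T cells.

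In mast cells Clec10a had too few UMIs to be called. It was found in 4 of 77 cells of library 1 and 20 of 72 of library 2, at 17.1 and 80.3 CPM, and in 4.62% and 20.3% of cells after thinning. Il1b in the same cells went from 17.1 to 213 CPM. The classical monocyte markers there summed to 239 and 433 CPM, the neutrophil markers to 7.59 and 38.0 CPM with Retnlg and Csf3r at 0 in both libraries, the macrophage markers to 237 and 304 CPM, and the inflammatory monocyte markers to 64.5 and 31.7 CPM with Inhba and Il1a at 0 in both. Their part was not tested.

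The signalling partners followed the receptors only in part. Fcer1g and Tyrobp were at or above 2300.3 CPM in library 1 and 2218 CPM in library 2 in every macrophage, monocyte and neutrophil class, but in NK cells too (2411 and 2398 CPM for Fcer1g), whereas Syk ran from 307 and 328 CPM in neutrophils to 4.05 and 3.19 CPM in CD8 T cells. Card9, the scaffold behind Dectin-1, reached at most 25.7 CPM in the compared classes (classical monocytes, library 2), and stood at 11.2 and 23.3 CPM in neutrophils and 0.522 and 0.696 CPM in CD8 T cells. Over the 22 signalling genes, 222 gene and class pairs had enough UMIs, and 11 (4.95%) were past 2-fold, 3 higher and 8 lower in library 2, against the 1.95% of all pairs given above. They included Fcer1g, Tyrobp and Il1b in regulatory T cells, Il1b in NK cells (38.7 and 14.8 CPM), Il10 in Pf4 macrophages (10.0 and 38.8 CPM) and in other T cells (64.4 and 27.3 CPM), and Tnf in Thbs1 monocytes (40.2 and 15.9 CPM). Syk, Card9, Bcl10 and Malt1 were not among them in any class where they had enough UMIs. Card9 had enough only in other C1q macrophages, classical monocytes, Thbs1 monocytes and cDC2, and Syk did not have enough in every class either.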

How the data were processed

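Expression was measured by 10x Genomics 3′ (v3.1) single-cell RNA sequencing of CD45+ lung cells. The authors deposited 1 matrix of UMI counts per gene and cell barcode, made with Cell Ranger 6.1.2 on mm10 per the submitters' processing notes. The annotation and any step before deposit that removed cells are not given in the sources used here. Per the file headers, the matrix pools both samples, and the barcode suffix separates them.

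A barcode was kept when it had 500 genes or more and no more than 10% of its UMIs came from mitochondrial genes. Cells were gated by summed UMIs of marker genes with thresholds set after seeing the data. Barcodes with markers of more than 1 lineage were left out, and no doublet caller was run. UMIs were summed per class and library and divided by the class total (CPM). Log2 ratios had 0.5 UMI added to each sum, classes needed 50 cells in each library, and genes needed 50 UMIs over both sums. With 1 library per sample no replicate exists, and intervals (95%) cover counting error only. The ratio step was tested on simulated counts. Thinning drew 3000 UMIs per cell with a fixed seed. The members and gene lists were chosen with earlier results of these data known. Members with at least 50 UMIs were described by the class of their highest level. Those reaching 50 CPM in a compared class, or past 2-fold between libraries, were given with values per library. The rest were given by totals and ranges. Alternatives were other cell filters, doubled gate thresholds, mixed barcodes kept, thinning, no minimum of UMIs, centring and another pseudocount. Of the 42 member identifiers, 39 matched GENCODE M21, from which positions were taken. The software was Python 3.11.15 with numpy 2.4.6, scipy 1.17.1, pandas 2.3.3 and matplotlib 3.10.9.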

Additional observations from a re-analysis of the deposited data

How the results depend on the processing

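Of 22 members, 16 were more than 2-fold higher in myeloid cells, 26 of 35 with no minimum of UMIs and 17 of 23 with plasmacytoid DC included. The same highest class in both libraries was found for 17 of 25 members, and for 10 of 19 with cells thinned to 3000 UMIs. The 12 pairs past 2-fold between libraries became 2 of 81 with thinned cells, 34 of 326 with no minimum, and 2 of 116 without the 3 cells with the most UMIs, an alternative chosen after seeing the data. Fewer pairs reach 50 UMIs after thinning and after leaving cells out: without the 3 cells, 8 of the 12 were past 2-fold with an interval excluding 0, and 7 of these fell under 50 UMIs. Those 7 had at most 7 UMIs left in library 2, so this alternative cannot show whether their ratios rest on a few cells. The signalling list had 11 pairs past 2-fold and 7 of 160 with thinned cells. These 4 counts stayed within 1.5 times under the other alternatives run.

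In regulatory T cells, the log2 ratio of Clec4n turned to 1.02 with doubled gate thresholds, and that of Clec4a3 became 0.00345 with mixed barcodes kept. The cause was not tested. Over the 12 pairs, 8 alternatives can change a ratio. Of these 96 ratios, 83 stayed inside the main counting interval, 11 left it in the same direction and 2 reversed. All that left it or reversed came from doubled gate thresholds, mixed barcodes kept or the 3 cells left out. The other cell filters, thinning, centring and the other pseudocount moved none. With doubled thresholds, Cd209d in cDC2 went to -2.56, Clec4e in migratory DC to -0.82 and Clec4n in other T cells to -1.24. Shares of cells with a UMI depend on depth: in NK cells, those with a Clec2i UMI went from 39.8% and 37.6% to 15.0% and 15.8% with thinned cells. Levels from under 50 cells (cDC1, plasmacytoid DC, Arg1 macrophages and basophils), and from B cells in library 2, have wide counting intervals. No paired analysis was possible because there was 1 library per sample and the barcodes carry no replicate numbers.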
